A study of Homo sapiens with 4 samples.

Results

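The BCL2 family was examined in HGC27, a human gastric cancer cell line derived from a lymph node metastasis, as 10 genes chosen by symbol: BCL2, BCL2L1, MCL1, BAX, BAK1, BCL2L11, BID, BAD, BBC3 and PMAIP1. All 10 were among the 25559 gene symbols of the count tables, and all 10 were among the 12967 genes that passed the filter on low counts. RNA-seq of poly(A) RNA was carried out on 2 libraries of wildtype cells, called control here, and 2 libraries of cells labelled RUNX3 knock-out (RUNX3 KO). The RUNX3 KO cells had been transduced with a lentivirus carrying Cas9 and a guide against RUNX3, selected with puromycin and single-cell cloned. The paper's methods do not give these steps for the control cells, and their part in the differences below was not tested. The labels do not give the clone behind each library, and neither the labels nor the paper says whether the replicates were separate cultures, so the p-values measure only the spread between these libraries, which may be technical.

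BCL2 family proteins set the threshold for apoptosis at the mitochondrial outer membrane. The effectors BAX and BAK permeabilize it and release cytochrome c, which activates caspases through APAF1, whereas anti-apoptotic members such as BCL2, BCL-XL and MCL1 restrain the effectors. BH3-only proteins (BIM, BID, BAD, PUMA and NOXA among them) respond to stress and either neutralize the anti-apoptotic members or activate the effectors. BIM, encoded by BCL2L11, is a known RUNX3-linked apoptosis gene of gastric epithelial cells. Many of these proteins are also controlled by splicing, phosphorylation and degradation, which a count of reads per gene does not measure.

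The tables assigned 11731401 and 11733407 reads to genes in control, against 11898276 and 12110876 in RUNX3 KO libraries. RUNX3 itself was counted 351 and 308 times in control and 225 and 185 times in RUNX3 KO libraries, so its transcript was lower but still present (log2 fold change -0.70, SE 0.0961). The edgeR adjusted p of RUNX3 was 1.43e-09, and it was 0.0649 without RUNX3 KO replicate 2. Adjusted p-values named edgeR here and below are those of its quasi-likelihood test, adjusted by Benjamini-Hochberg across every tested gene. Counts of a transcript do not measure the protein, which the paper reports as absent from its RUNX3 KO cells by immunoblot. Of 7 markers of differentiated gastric epithelium (MUC5AC, MUC6, TFF1, TFF2, GKN1, PGC and CLDN18), 6 had 0 counts in every library and MUC6 had 1 count in 1 library, so the labelled tissue was not visible in these genes. The 6 epithelial markers summed to 37 counts in each control library and to 109 and 130 in the RUNX3 KO libraries, 4 of the 6 exceeding 3 counts in some library, with KRT8 going from 19 and 11 to 72 and 81 while KRT19 was at 0. Leukocyte markers (4 of 5 over 3 counts, CD3E at 0) summed to 17 to 31 counts, and endothelial markers (1 of 3 over 3 counts, PECAM1 and CDH5 at 0) to 1 to 4 counts. Of 2 red cell markers HBA1 had 81 and 74 counts in control and 139 and 154 in RUNX3 KO libraries, while HBB was at 0. The part of KRT8 and HBA1, which moved with the groups, in the results below was not tested.

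The change in these 10 members was small. By edgeR's quasi-likelihood test, 3 of the 10 genes fell in RUNX3 KO cells (BID, BAD and BAX) and 1 rose (BCL2L1), whereas 48.9% of all tested genes passed the same test, 24.4% as lower and 24.5% as higher. This 4 of 10 was thus close to the share of genes at large. None of the 10 reached a fold change of 2 with an unadjusted p of at most 0.05, the study's criteria, which 6.12% of tested genes met. The median log2 fold change of the 10 genes was -0.065, beside -0.0021 for all tested genes, and the median size of the change, regardless of direction, was 0.11 beside 0.19. With DESeq2 in place of edgeR none of the 10 passed, the lowest adjusted p being 0.0657 for BID, and 1 had an unadjusted p under 0.05 beside 36.2% of all tested genes (5 with edgeR, beside 54.2%). Without RUNX3 KO replicate 1 none passed either, and likewise without RUNX3 KO replicate 2, with lowest edgeR adjusted p-values of 0.0955 and 0.0890, both for BCL2L1, while 1 and 3 members had an unadjusted p under 0.05 beside 40.8% and 39.7% of tested genes. The share of all tested genes that passed also fell, to 28.5% with DESeq2 and to 22.8% and 20.1% without RUNX3 KO replicates 1 and 2. Only BCL2L1 passed without control replicate 2, and BAD was lost without control replicate 1, where 41.5% and 42.1% of all tested genes passed.

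**Figure D1:**
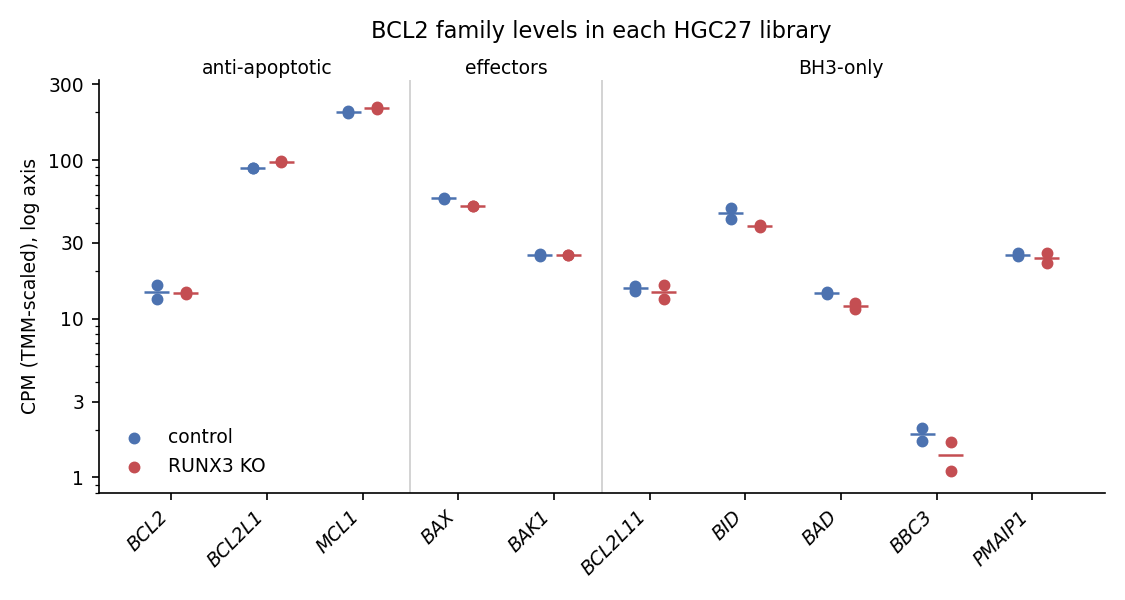
CPM (counts scaled to a common library total with TMM factors, log axis) of the 10 BCL2 family genes in each HGC27 library, 2 control and 2 RUNX3 KO. Points are libraries and short lines are means of 2; MCL1 lay highest, from 199 to 215 CPM, and BBC3 lowest, from 1.10 to 2.03 CPM.

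Promoter sequences of 3 members are shown because RUNX3 is a DNA-binding factor, and because they let a reader see the windows behind the members that turn up below: BCL2L11 as the gene linked to RUNX3, and BCL2L1 and BAX as the members that passed the test and also held a RUNX motif. Each window holds 300 bases, mostly before an annotated start, 5′ to 3′ on the strand of the gene, from RefSeq on GRCh38.p14, a build other than the hg19 of the counts. The motifs searched were TGTGGT and TGCGGT on both strands, and capitals mark a match (ACCACA is TGTGGT read on the other strand).
BCL2L11, chr2:111120664-111120963, plus strand: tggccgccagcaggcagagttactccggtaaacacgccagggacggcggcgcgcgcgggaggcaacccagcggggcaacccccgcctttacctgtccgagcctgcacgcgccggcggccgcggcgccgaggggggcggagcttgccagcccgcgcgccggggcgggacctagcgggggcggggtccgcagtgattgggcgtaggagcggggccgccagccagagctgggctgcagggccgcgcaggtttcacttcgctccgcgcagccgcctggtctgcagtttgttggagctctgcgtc
BCL2L1, chr20:31723914-31724213, minus strand: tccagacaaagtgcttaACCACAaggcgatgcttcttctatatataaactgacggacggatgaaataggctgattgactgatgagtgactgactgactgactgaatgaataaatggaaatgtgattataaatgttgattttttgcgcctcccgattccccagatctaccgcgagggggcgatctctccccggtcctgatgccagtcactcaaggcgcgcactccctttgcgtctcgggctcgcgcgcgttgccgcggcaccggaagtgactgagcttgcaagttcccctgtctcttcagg
BAX, chr19:48954625-48954924, plus strand: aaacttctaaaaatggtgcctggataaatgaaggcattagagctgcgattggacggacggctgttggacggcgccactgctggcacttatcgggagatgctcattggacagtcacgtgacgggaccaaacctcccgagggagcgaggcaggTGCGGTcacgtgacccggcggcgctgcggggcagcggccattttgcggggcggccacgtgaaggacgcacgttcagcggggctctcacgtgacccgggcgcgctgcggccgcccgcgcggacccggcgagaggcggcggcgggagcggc

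BCL2L1 has another window, chr20:31722819-31723118, which holds neither motif and is not printed. Of the 10 members, 9 had a window in the table, 15 windows in all, and 3 of these windows (20%) held either motif, beside 19.6% of all 35116 promoter windows. The match at BCL2L1 began 233 bases before the start and that at BAX 99 bases before it, and a match in the window of BCL2 lay within the first bases of the transcript. No match was found in the windows of BCL2L11, BAK1, BID, BAD, BBC3 or PMAIP1, which says only that these letters are absent there. Matches are a description of sequence and not of binding.

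BCL2L11 (BIM) did not differ measurably. BIM is a BH3-only protein that binds all of the anti-apoptotic members and can activate BAX and BAK directly. The gene, on chromosome 2 from 111876955 to 111926021 (hg19, plus strand), was counted 189 and 177 times in control and 157 and 196 times in RUNX3 KO libraries. The groups overlapped, since RUNX3 KO replicate 1 was the lowest of the 4 libraries and RUNX3 KO replicate 2 the highest. Its level was 15.5 ± 0.714 CPM in control and 14.8 ± 2.12 CPM in RUNX3 KO cells (SD, n = 2 each), and the log2 fold change was -0.065 (SE 0.112, edgeR adjusted p = 0.663). The 95% interval of the log2 fold change reached from -0.29 to 0.16, which is from -18.1% to 11.6%, so changes within these bounds were not excluded. The direction depended on 1 library, with 0.075 without RUNX3 KO replicate 1 and -0.22 without RUNX3 KO replicate 2. Of all tested genes, 80.8% changed at least as much. Reads of the splice forms of BIM are summed in this count, and MIR4435-2HG, a long noncoding RNA that is not in the count tables, shares 727 exonic bases with BCL2L11 on the opposite strand.

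Among the anti-apoptotic members BCL2L1 rose slightly. BCL2L1 encodes BCL-XL, the long form that protects cells, and also the short form BCL-XS, which these counts do not separate. On chromosome 20 from 30252255 to 30311792 (minus strand), it reached 1047 and 1049 counts in control and 1158 and 1170 counts in RUNX3 KO libraries. In CPM these were 88.7 and 88.9 against 98.1 and 97.3, so both RUNX3 KO libraries lay above both control libraries and the libraries of a group nearly coincided. The log2 fold change was 0.14 (SE 0.0467, edgeR adjusted p = 0.0102), a rise of 10.1% with an interval from 3.19% to 17.4%. DESeq2 gave an adjusted p of 0.168 for the same change, and the call was also lost without either RUNX3 KO library although the log2 fold change stayed between 0.13 and 0.14 with each library left out in turn. ABALON, an opposite-strand noncoding RNA that is not in the tables, shares 1735 exonic bases with it.

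MCL1 was the most abundant member by count. It encodes a short-lived anti-apoptotic protein and lies on chromosome 1 from 150533371 to 150552214 (minus strand). It had 2420 and 2353 counts in control and 2533 counts in each of the RUNX3 KO libraries, or 205 and 199 CPM against 215 and 211 CPM. The groups did not overlap, but the log2 fold change of 0.073 (SE 0.0341) did not pass over all genes (edgeR adjusted p = 0.0689). BCL2, the founding anti-apoptotic gene of the family, on chromosome 18 from 60790579 to 60987361 (minus strand), was far lower, at 157 and 193 counts in control and 174 and 171 in RUNX3 KO libraries. The RUNX3 KO values, 14.7 and 14.2 CPM, lay between the control values of 13.3 and 16.4 CPM. Its log2 fold change was -0.034 (SE 0.114, edgeR adjusted p = 0.834, interval from -0.26 to 0.19), and it went to 0.12 without control replicate 2.

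The effectors differed from each other in the outcome of the test. BAX, on chromosome 19 from 49458072 to 49465055 (plus strand), had 671 and 683 counts in control and 602 and 620 counts in RUNX3 KO libraries. Both RUNX3 KO libraries, at 51.0 and 51.6 CPM, lay below both control libraries, at 56.8 and 57.9 CPM. The log2 fold change was -0.16 (SE 0.0602, edgeR adjusted p = 0.0203), which is a change of -10.6% with an interval from -17.7% to -2.85%. DESeq2 gave an adjusted p of 0.231, and the edgeR adjusted p ran from 0.0455 to 0.126 with each library left out, under 0.05 only without control replicate 1. BAK1, which encodes BAK and lies on chromosome 6 from 33540324 to 33548070 (minus strand), was counted 300, 294, 296 and 305 times in control replicates 1 and 2 and RUNX3 KO replicates 1 and 2. Its libraries overlapped at 25.4, 24.9, 25.1 and 25.4 CPM, and the log2 fold change of 0.0036 (SE 0.0865, interval from -0.17 to 0.18, edgeR adjusted p = 0.977) changed sign with the scaling. The difference between the changes of BAX and BAK1 was not tested.

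Of the 5 BH3-only members BID and BAD passed as lower, beside 24.4% of all tested genes. The log2 fold changes of all 5 were below 0, as were those of 50.4% of tested genes, but BCL2L11 and PMAIP1 turned above 0 without RUNX3 KO replicate 1. BID, whose cleaved form carries the signal of death receptors to mitochondria, lies on chromosome 22 from 18216904 to 18257536 (minus strand) and was counted 505 and 587 times in control and 445 and 469 times in RUNX3 KO libraries. Its levels of 42.8 and 49.7 CPM in control and 37.7 and 39.0 CPM in RUNX3 KO cells did not overlap, with control replicate 2 standing highest. The log2 fold change was -0.27 (SE 0.0702, edgeR adjusted p = 0.000768), which went to -0.16 (edgeR adjusted p = 0.127) without control replicate 2. It also missed the threshold with DESeq2, without a filter on low counts (adjusted p = 0.0711) and without either RUNX3 KO library, with 0.226 and 0.182 in turn.

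BAD, a sensitizer that growth factor signalling keeps phosphorylated and inactive, lies on chromosome 11 from 64037302 to 64052176 (minus strand). It had 170 and 173 counts in control and 136 and 150 counts in RUNX3 KO libraries, or 14.4 and 14.7 CPM against 11.5 and 12.5 CPM, without overlap. The log2 fold change was -0.28 (SE 0.118) and the edgeR adjusted p of 0.0449 lay just under the threshold. It was lost with DESeq2 (0.328), without a filter (0.0698) and without each of the 4 libraries in turn (edgeR adjusted p from 0.0929 to 0.226). BAD shares 404 exonic bases with GPR137 on the opposite strand, and since the sources used here do not give the strand setting, reads of the pair may not have been told apart.

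BBC3 and PMAIP1 encode PUMA and NOXA, BH3-only proteins that p53 induces. BBC3, on chromosome 19 from 47724079 to 47736023 (minus strand), was close to the limit of this depth, with 24 and 20 counts in control and 13 and 20 in RUNX3 KO libraries. In CPM the groups were separated by a small margin, 1.66 against 1.69, between libraries with 20 counts each. The log2 fold change of -0.43 (SE 0.325, edgeR adjusted p = 0.288) had an interval from -1.07 to 0.22, and it was -0.16 without RUNX3 KO replicate 1 and -0.75 without RUNX3 KO replicate 2. PMAIP1, on chromosome 18 from 57567228 to 57571537 (plus strand), had 293 and 304 counts in control and 264 and 312 in RUNX3 KO libraries, with the groups overlapping. Its log2 fold change was -0.065 (SE 0.0888, edgeR adjusted p = 0.576, interval from -0.24 to 0.11) and it turned to 0.040 without RUNX3 KO replicate 1. In all, the libraries of both groups did not overlap in CPM for 6 of the 10 members, beside 72.7% of all tested genes. In bulk RNA, fewer cells with a transcript and less transcript per cell cannot be told apart.

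**Figure D2:**
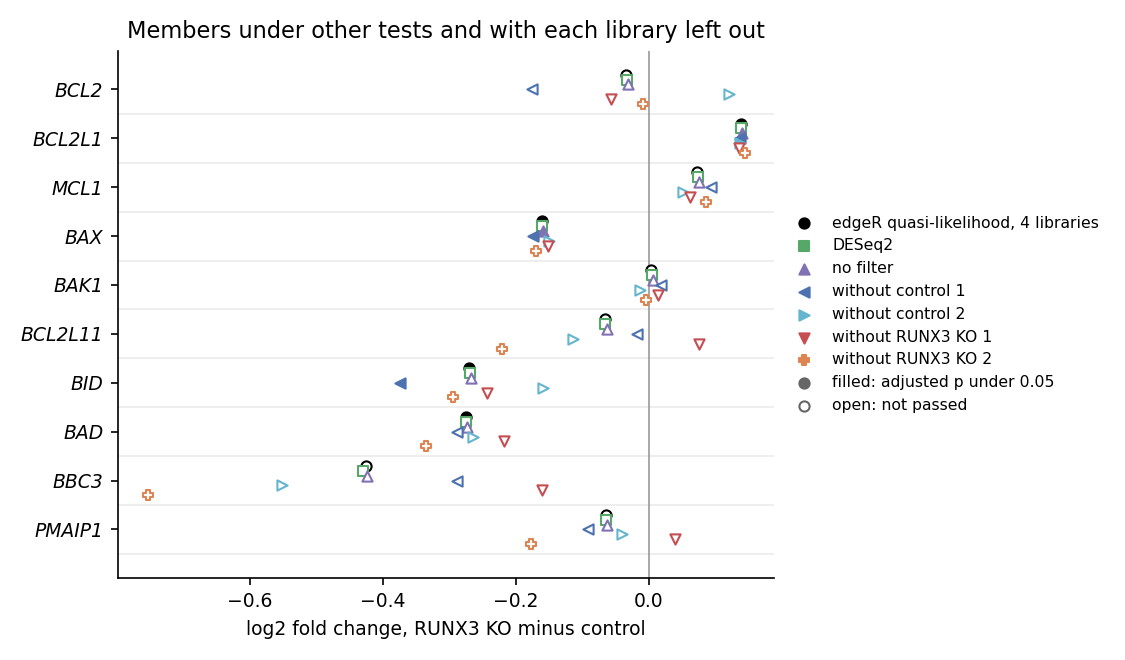
Log2 fold change (RUNX3 KO minus control) of each member by edgeR's quasi-likelihood test on 4 libraries, by DESeq2, without a filter on low counts, and by the edgeR test with each library left out. Filled symbols have an adjusted p under 0.05; BCL2L1 kept to 0.13 to 0.14, whereas BCL2L11, BCL2, BAK1 and PMAIP1 crossed 0 when 1 library was left out.

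Changes of members were also set beside those of the genes around them, taken as the nearest tested genes, up to 20 on each side. Around BID all 27 such genes, which span 17082777 to 19929343 on chromosome 22, had a log2 fold change below 0. Of these, 22 passed as lower and none as higher, with a median of -0.50, and 25 were lower by at least as much as BID. BCL2L13, another family member, ends 3283 bases before BID and was counted 834 and 824 times in control and 678 and 664 times in RUNX3 KO libraries (log2 fold change -0.32, SE 0.0560, edgeR adjusted p = 1.00e-06). The lower BID counts therefore lay within a stretch of lower counts, and relative to its neighbours BID was at 0.23 on the log2 scale.

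Around BAX, 30 of 40 genes were below 0, with a median of -0.26, and 25 were lower by at least as much as BAX, which was at 0.097 relative to them. Of these 40, 14 passed as lower and 5 as higher. For the other members that passed, the neighbours went both ways, with 20 of 40 below 0 around BCL2L1 (median 0.0014) and 24 of 40 around BAD (median -0.073). Around BCL2L11 the median was 0.016. BCL2L1 and BAD thus kept their sign after the neighbours were subtracted, at 0.14 and -0.20, whereas BID and BAX reversed. What the shared shift of neighbouring genes does to BID and BAX was not tested.

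**Figure D3:**
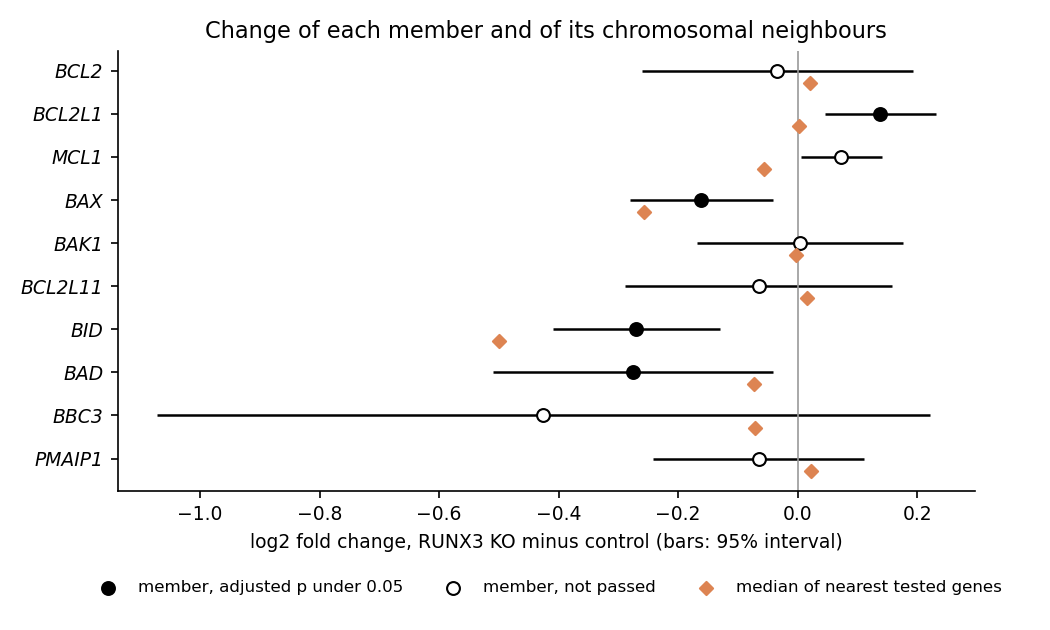
Log2 fold change (RUNX3 KO minus control) of the 10 members with 95% intervals (circles, filled at an edgeR adjusted p under 0.05), and the median over the neighbouring tested genes of each (diamonds). The diamonds of BID and BAX, at -0.50 and -0.26, lie further left than the genes themselves, and those of the other 8 members lie between -0.073 and 0.022.

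Levels of different genes were compared per length, as RPKM, which divides CPM by the length in kilobases of the union of GENCODE exons. In control cells MCL1 led with 32.5 ± 0.636 RPKM, followed by BAX with 22.2 ± 0.284 and BCL2L1 with 21.2 ± 0.0348 (SD, n = 2 each). PMAIP1, BAK1 and BID, at 11.6 ± 0.305, 11.4 ± 0.159 and 10.5 ± 1.11 RPKM, did not differ beyond their spread, and BAD followed at 8.51 ± 0.108. BCL2L11, BCL2 and BBC3 were lowest, at 2.30 ± 0.106, 1.18 ± 0.171 and 0.585 ± 0.0751 RPKM. In RUNX3 KO cells BCL2L1 stood above BAX, at 23.3 ± 0.133 against 19.8 ± 0.155 RPKM, and BAK1 above PMAIP1 within their spread, with the other ranks as in control. The order depends on the length used, since on the MANE Select transcript BAX (72.1 RPKM in control) led MCL1 (51.2 RPKM) in both groups, while BCL2L11, BCL2 and BBC3 remained the lowest of the 10.

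The wider pathway was taken as 61 genes in 5 lists, of which 49 were tested. Of these, 15 fell and 12 rose (55.1%, beside 48.9% of all genes), and 3 passed a fold change of 2. With DESeq2, 7 of the 49 fell and 6 rose, beside 28.5% of all tested genes in either direction, so the list did not exceed genes at large there. Among 13 other BCL2 family genes, 7 were tested, 4 fell and 1 rose (71.4%, beside 48.9% of all tested genes), with a median log2 fold change of -0.32 beside -0.0021. The remaining 6 (BCL2A1, BCL2L10, BIK, HRK, BCL2L14 and BNIP3) had at most 17 counts in any library. BMF, a BH3-only gene linked to cell detachment, had the largest change of the 7.

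BMF, on chromosome 15 from 40380091 to 40401093 (minus strand), was counted 33 and 45 times in control and 9 and 12 times in RUNX3 KO libraries. Both RUNX3 KO libraries were far below both control libraries, with 3.30 ± 0.720 CPM in control and 0.880 ± 0.167 CPM in RUNX3 KO cells (SD, n = 2 each). The log2 fold change was -1.89 (SE 0.318, edgeR adjusted p = 3.42e-07) while its neighbours had a median of 0.20. It kept a log2 fold change of -1.71 and -2.10 without RUNX3 KO replicates 1 and 2, with edgeR adjusted p-values of 0.0555 and 0.0515. BMF was counted 0.175 and 0.254 times as often as BCL2L11 in control and 0.0573 and 0.0612 times as often in RUNX3 KO libraries.

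BCL2L2, which encodes the anti-apoptotic protein BCL-W, lies on chromosome 14 from 23767999 to 23780960 (plus strand) and went from 624 and 655 to 362 and 397 counts. Its log2 fold change of -0.77 (SE 0.0691, edgeR adjusted p = 5.70e-17) passed in all 14 alternatives, and 39 of its 40 neighbours were also below 0, with a median of -0.37. It shares exons with the readthrough gene BCL2L2-PABPN1, so its count is uncertain. BOK, an effector-like member, rose from 109 and 110 to 142 and 156 counts (log2 fold change 0.43, SE 0.130, edgeR adjusted p = 0.00383), a call lost with DESeq2 (0.129) and without RUNX3 KO replicate 1 (0.0508) or 2 (0.0863).

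Downstream of mitochondria, 13 genes of the apoptosome, caspases and released proteins were all tested, and 4 fell while 5 rose (69.2%, beside 48.9% of all tested genes), with a median of 0.20. CASP10, an initiator caspase of death receptors, was close to absent from the RUNX3 KO libraries (edgeR adjusted p = 6.24e-13). It went from 39 and 35 counts in control to 3 and 0 in RUNX3 KO libraries. Set to 3 counts in both RUNX3 KO libraries, its level would be 12.4-fold lower, which is not a lower bound. The log2 fold change ran from -8.22 to -3.57 with each library left out, and was below 0 in all 13 alternatives. CASP8, the next initiator caspase on chromosome 2, had 169 and 147 counts in control and 95 and 131 in RUNX3 KO libraries (log2 fold change -0.50, SE 0.131, edgeR adjusted p = 0.000942). That call was lost with DESeq2 (0.0808), without a filter (0.0796) and without RUNX3 KO replicate 1 (0.211) or 2 (0.0567), where the log2 fold change was -0.29 and -0.73. The 40 neighbours of this pair had a median of 0.011.

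Inhibitor of apoptosis proteins, which bind caspases, had 5 tested genes of 7, of which 3 fell and none rose (24.4% and 24.5% of all tested genes), with a median of -0.16. BIRC2 had a log2 fold change of -0.25 (edgeR adjusted p = 0.00178) and XIAP of -0.16 (edgeR adjusted p = 0.0339). BIRC2 lost its call with DESeq2 (0.0854) and without RUNX3 KO replicates 1 (0.0688) and 2 (0.0754). XIAP lost its call with DESeq2 (0.294), without a filter (0.244), without control replicate 2 (0.237) and without RUNX3 KO replicates 1 (0.626) and 2 (0.0783), where its log2 fold change was -0.051 and -0.28. Of 12 death receptor genes, 8 were tested, 1 fell and 1 rose, fewer than the 48.9% of all tested genes, with a median of -0.035.

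FAS, a death receptor on chromosome 10 from 90750414 to 90775542 (plus strand), had 451 and 463 counts in control and 221 and 236 in RUNX3 KO libraries. The libraries of each group lay close together and far apart from the other group, at 38.7 ± 0.730 against 19.2 ± 0.641 CPM (SD, n = 2). Its log2 fold change was -1.01 (SE 0.0835, edgeR adjusted p = 6.35e-19), a 2.02-fold fall that passed in all 14 alternatives, and its neighbours had a median of 0.024. FADD, the adaptor that links such receptors to caspases, rose by 0.35 (SE 0.0792, edgeR adjusted p = 0.000120), a call lost without RUNX3 KO replicate 1 (0.0847).

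Of 16 partners and regulators of the family, all tested, 3 fell and 5 rose, close to the 48.9% of all tested genes, with a median of 0.079. FOXO3 and FOXO1, of the FOXO factors known to activate BCL2L11 and BBC3, went in opposite directions. FOXO4 was also counted less often, at 28 and 26 counts in control and 19 and 20 in RUNX3 KO libraries. FOXO3 fell from 162 and 194 to 100 and 101 counts (log2 fold change -0.84, SE 0.129, edgeR adjusted p = 3.47e-08), and without RUNX3 KO replicates 1 and 2 its edgeR adjusted p was 0.0508 and 0.0594 at nearly the same change. FOXO1 rose from 207 and 216 to 304 and 317 counts (log2 fold change 0.54, SE 0.0933, edgeR adjusted p = 6.54e-07) and passed in all 14 alternatives. DYNLL2, a dynein light chain that binds BMF, rose by 0.27 (edgeR adjusted p = 3.62e-05, and 0.0509 without RUNX3 KO replicate 2). MDM2, the inhibitor of p53, had a log2 fold change of -0.25 (edgeR adjusted p = 0.00129), a call lost with DESeq2 (0.0756) and without RUNX3 KO replicates 1 (0.0939) and 2 (0.0581).

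**Figure D4:**
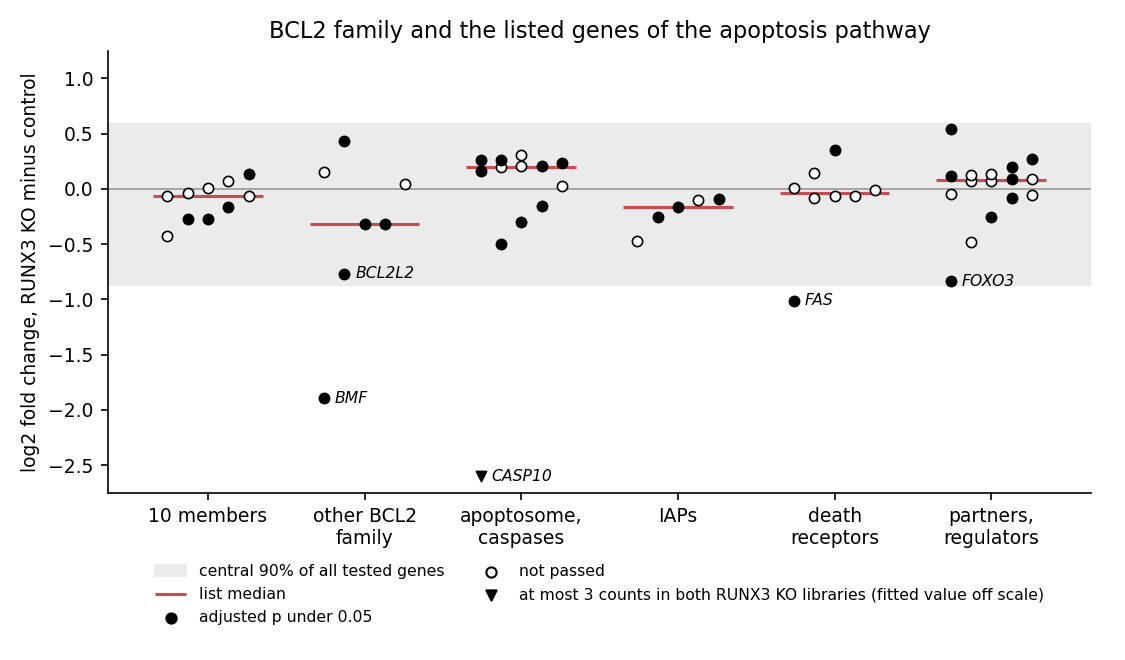
Log2 fold change (RUNX3 KO minus control) of the tested genes among the 10 members and the 5 lists of the apoptosis pathway (points, filled at an edgeR adjusted p under 0.05; red lines, list medians), over the central 90% of all tested genes, from -0.87 to 0.59 (grey). All 10 members lie inside the grey band, whereas BMF, FAS and CASP10 lie below it, CASP10 as a triangle because its fitted value is off the scale.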

How the data were processed

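Per the paper's methods, reads were aligned with STAR to hg19 and counted with featureCounts on GENCODE genes, whereas the submitters' processing notes name bcl2fastq, HISAT2 2.1.0 and HTSeq, and the tables close with the 5 unassigned rows that htseq-count writes. The deposited values are raw counts of reads per gene symbol, without normalization by the authors. The unassigned rows took 25.9% to 28.1% of counts and entered neither library sizes nor tests. Counts on genes ranged from 11731401 to 12110876 per library, which leaves a wide error on rarely counted genes.

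The tests used edgeR 4.0.16 in R 4.3.3 (filterByExpr at 10 counts, 15 in total, TMM scaling, glmQLFit with a prior count of 0.125 and glmQLFTest, Benjamini-Hochberg adjustment over 12967 genes). Standard errors are the size of the log2 fold change over the square root of F, and 95% intervals use the test's degrees of freedom. DESeq2 1.42.0, limma-voom (limma 3.58.1), edgeR's exact test, other scalings and filters, a replicate block, and each library left out were alternatives, and edgeR's newer quasi-likelihood method was added after seeing the data. The fit was tested on simulated counts with log2 changes of size 1 and 2, and recovered 93.4% and 97.9% of them with 6 false calls. Smaller changes, such as those of the members that passed, were not simulated. The smallest two-sided p of an exact permutation test here is 0.333. Positions and lengths came from GENCODE on GRCh37, matched to 21717 symbols, 2110 of them by RefSeq synonym. The floor sets both RUNX3 KO libraries to 3 counts and does not cover counting error.

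The members and lists were chosen with earlier results of these data known. All members are named, and, from each list, genes past a fold change of 2 at an adjusted p under 0.05 and the 2 largest falls and rises among genes under it. Some genes that this rule names are not reported here. BCL2L13 and FOXO4 were named after their values were seen.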

Additional observations from a re-analysis of the deposited data

How the results depend on the processing

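Of the members, BCL2L1, BAX, BID and BAD passed with edgeR's exact test, limma-voom, RLE, upper-quartile and library-size scaling, at least 10 counts in every library, the replicate block and edgeR's newer quasi-likelihood method. With DESeq2 the log2 fold changes were 0.14, -0.16, -0.27 and -0.28 in that order but 0 members passed, while 1863 genes lower and 1829 higher passed (3158 and 3183 with edgeR), as did 7 and 6 listed pathway genes (15 and 12 with edgeR). Without a filter BID (-0.27) and BAD (-0.27) were lost, leaving 1 member lower, BAX, while the share of all tested genes that passed fell from 48.9% to 27.8%. At least 10 counts in every library left 298 genes lower and 160 higher by the fold change criteria, from 520 and 274, with fewer genes tested. BAK1 turned to -0.017 with upper-quartile scaling, -0.016 with library size and -0.0029 with 10 counts in every library. Subtracting the median of neighbouring genes gave 0.13 for MCL1, 0.097 for BAX, 0.23 for BID and -0.20 for BAD. Why these calls moved was not tested.

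With each library left out in turn, log2 fold changes ranged from -0.86 to -0.55 for RUNX3, -0.22 to 0.075 for BCL2L11, -0.18 to 0.12 for BCL2, 0.13 to 0.14 for BCL2L1, -0.17 to -0.15 for BAX, -0.013 to 0.018 for BAK1, -0.37 to -0.16 for BID, -0.33 to -0.22 for BAD, -0.75 to -0.16 for BBC3 and -0.18 to 0.040 for PMAIP1. That of MCL1 ran from 0.051 to 0.093. Counts ranged from 1378 to 2806 genes lower, 1285 to 2745 higher, 0 to 2 members lower, 0 to 1 members higher, 4 to 14 listed genes lower and 3 to 10 higher. Where 1 library was left, it was assumed to vary like the other group.

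The same replicate numbers did not pair the libraries (correlation of deviations 0.0257). The replicate block gave 3143 genes lower and 3143 higher, with the same 4 members.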

Other observations

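Ratios of raw counts between members, which need no scaling between libraries, were taken after the values were seen and were not tested. BAX was counted 0.641 and 0.651 times as often as BCL2L1 in control and 0.520 and 0.530 times as often in RUNX3 KO libraries. BID was counted 0.482 and 0.560 times as often as BCL2L1 in control and 0.384 and 0.401 times as often in RUNX3 KO libraries. The ratio of BCL2L11 to MCL1 was 0.0781 and 0.0752 in control and 0.0620 and 0.0774 in RUNX3 KO libraries and the groups overlapped. They also overlapped for BAX to BCL2, at 4.27 and 3.54 in control and 3.46 and 3.63 in RUNX3 KO libraries, for BCL2L1 to BCL2, at 6.67 and 5.44 against 6.66 and 6.84, and for BCL2L11 to BCL2. The ratio of BCL2L11 to BCL2L1 was 0.181 and 0.169 in control and 0.136 and 0.168 in RUNX3 KO libraries.

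Of the summed RPKM of the 10 members on exon-union lengths, the 3 anti-apoptotic genes held 45.5% and 44.5% in control and 50.1% and 48.3% in RUNX3 KO libraries. The effectors held 27.6% and 27.4% against 26.3% and 26.1%, and the 5 BH3-only genes held 26.8% and 28.1% against 23.6% and 25.7%. The shares depend on the length used, since on MANE Select lengths the anti-apoptotic genes held 39.4% and 38.4% and the effectors 37.2% and 37.0% in control. BID and BAX, whose neighbouring genes were lower too, are part of these sums.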
